A study of Homo sapiens with 6 samples.

Results

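Cadherins and protocadherins are calcium-binding adhesion proteins of the cell surface, and their genes were followed here in LN229 cells that overexpressed LACTB. The members were all rows of the expression table whose gene symbol was CDH or PCDH followed by a number or by a cluster letter and a number. This rule, which used no expression value, took 87 of 24489 rows. They comprised 23 cadherins (CDH), 53 clustered protocadherins (15 alpha, 16 beta and 22 gamma genes) and 11 protocadherins outside the clusters.

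RNA-seq had been run on 6 libraries of LN229, an established human glioblastoma line. The tested cells had been transduced to overexpress LACTB, whose product is a mitochondrial protein related to bacterial beta-lactamases (LACTB 1 to 3), and the other cells had been transduced with vector alone (vector 1 to 3). The labels give neither the promoter of the construct nor a clone, a time after transduction or a separate culture for each library. The p-values therefore rest on the spread among libraries alone, and that spread may be technical.

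Classical cadherins join neighbouring cells through their outer domains and bind catenins, which connect them to actin, on the inside. Type I members include E-cadherin (CDH1) and N-cadherin (CDH2), and type II members include CDH6, CDH11, CDH12 and CDH18. Protocadherins lack the catenin-binding tail. The clustered ones lie in 3 tandem arrays on chromosome 5, where alpha and gamma genes each supply their own first exon that is spliced to shared constant exons, while beta genes consist of single exons. In neurons, single cells use different sets of clustered isoforms and recognise themselves by them.

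LACTB itself, the check of the labels, held 4268, 4078 and 4203 normalized read counts in LACTB cells, against 458, 515 and 393 in vector cells, a 9.19-fold ratio of means. Column totals were 34907394 to 35683869 in LACTB libraries and 38049489 to 41384595 in vector libraries, and the read depth behind them is unknown. Genes above 0 numbered 22538 in each vector library, and 20809, 20500 and 23061 in LACTB 1, 2 and 3. What processing gave the equal vector numbers is not stated. The p-values treat the libraries as independent, and whether values were adjusted across libraries before deposit was not tested. Markers of several cell types were followed as lists. Of all 12942 tested genes, 27.4% were higher and 24.5% lower in LACTB cells, and the list counts stand beside these shares. Of 10 melanocytic and neural crest markers, 7 were tested and 4 were lower (DCT 57.7 against 1776). With equal column totals 3 were lower, and with median centring 5. The list sums were 54915 to 59197 in LACTB and 62506 to 77334 in vector libraries. TYR was listed at 0 in every LACTB library and averaged 27.8 in vector cells, while TYRP1 averaged 22.8 in LACTB cells and 4.22 in vector cells. Neither was tested. Of 10 epithelial markers, 3 were tested and 2 were lower (KRT8 and KRT18, sums 2855 to 3392 against 5991 to 7301), with EPCAM and GRHL2 near 0 throughout. Among 10 astrocyte and glioma markers, 8 were tested, 3 were higher and 4 lower (sums 93163 to 93851 against 94413 to 99926), and AQP4 and ALDH1L1 stood near 0. None of 2 tested endothelial markers passed the threshold (sums 182 to 202 against 251 to 320), and KDR, under the filter, averaged 4.86 ± 5.71 in LACTB cells and 69.9 ± 11.3 in vector cells. For neuronal markers, 2 of 4 tested were higher (sums 15825 to 17303 against 13557 to 16537). Equal column totals gave 3 higher and 0 lower neuronal markers, and median centring 2 and 1. For astrocyte and glioma markers these scalings gave 4 and 3, and 3 and 4. The part of these lists in the results on cadherins was not tested. In bulk RNA, fewer cells of a type and less RNA per cell cannot be told apart.

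Among the members, 48 had a mean of at least 37.7 normalized counts, which was 1 CPM of the mean column total, and were tested with limma on log2(value + 1). At a Benjamini-Hochberg adjusted p of 0.05 over all tested genes, 17 members were higher and 4 lower in LACTB cells, and 27 did not pass. The share called was 43.8%, against 51.9% of all 12942 tested genes, so the members as a whole were not called more often than the background. Higher calls made up 35.4% of tested members and 27.4% of all tested genes, and lower calls made up 8.33% and 24.5%. The median log2 difference was 0.29 over the tested members and 0.05 over all tested genes. Groups did not overlap for 16 of the 48, against 59.7% of all tested genes. With equal column totals the split was 19 higher and 2 lower, and with median centring 14 and 9. Those scalings put the median of all genes at 0.24 and -0.09.

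The classes are given side by side, and no class was tested against another. Among all tested genes 27.4% were higher and 24.5% lower, shares that stand beside each class here and below. Of the 8 tested CDH genes, 7 were higher and none lower (median 0.96). Of 7 tested protocadherins outside the clusters, 3 were higher and none lower (median 0.16). Of 33 tested clustered protocadherins, 7 were higher and 4 lower (median 0.13), and 22 did not pass. Of the 6 called members whose mean reached the filter in a single group, CDH6, CDH12, PCDHGA6 and PCDHGA7 reached it in LACTB cells, and PCDHA7 and PCDHB3 in vector cells. These 6 could pass only through the group in which they were high. Among the 41 members at or above the filter in both groups, 13 were higher and 2 lower. Of these 41, 5 of 6 CDH genes were higher and 0 lower, and 5 of 28 clustered protocadherins were higher and 2 lower.

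**Figure D1:**
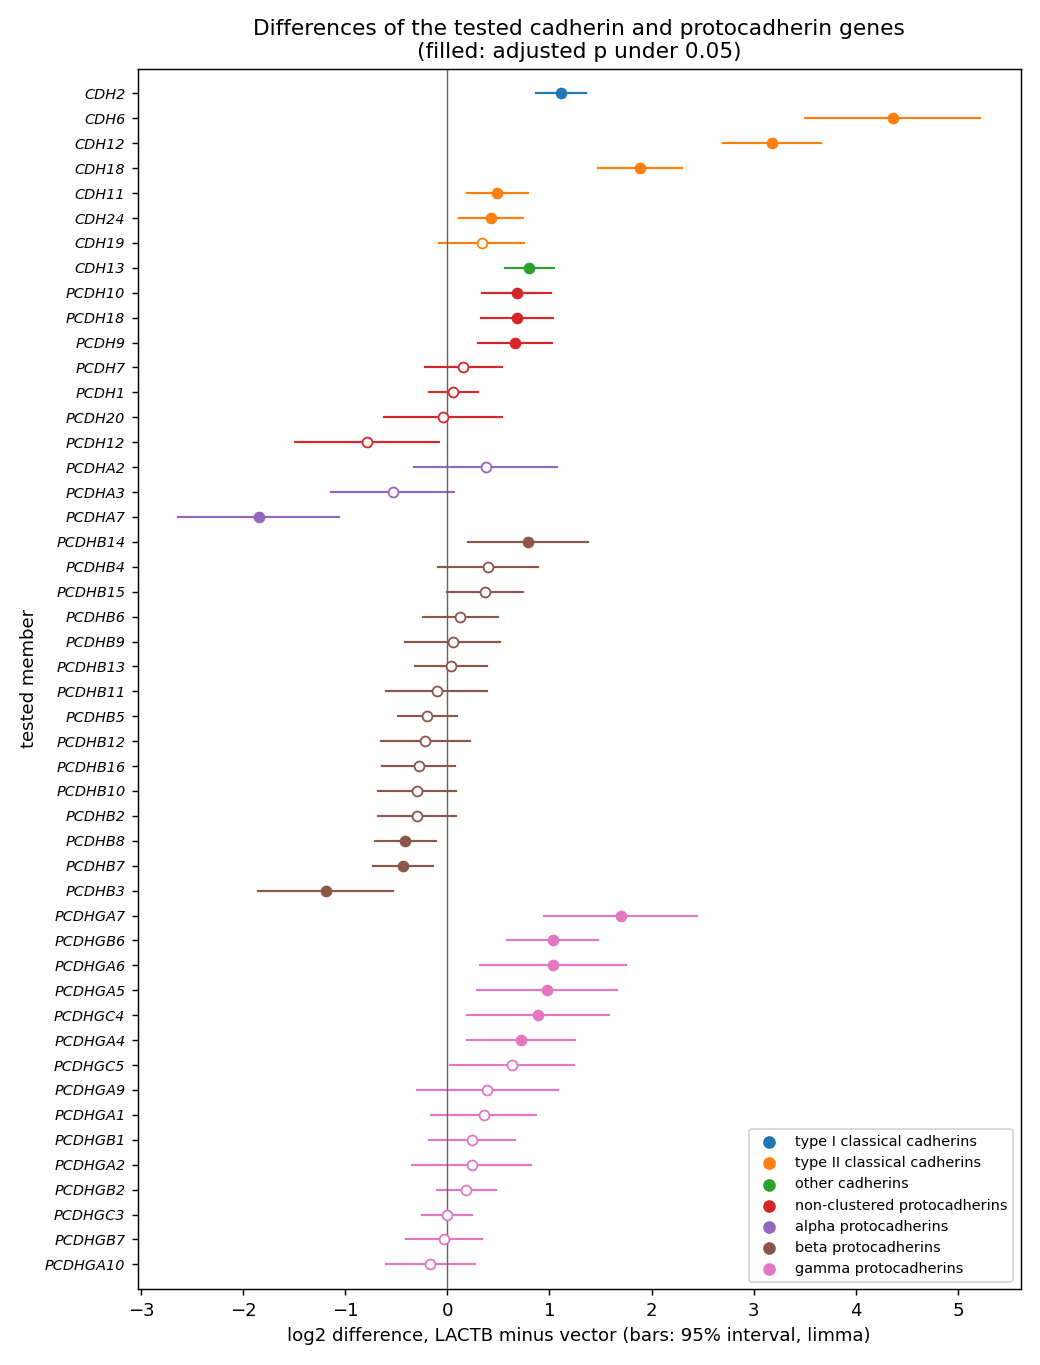
Log2 differences, LACTB minus vector, of the 48 tested members by class, with bars for the 95% confidence interval of the limma fit and filled symbols for members past the adjusted p of 0.05. The type II cadherins CDH6 (4.36), CDH12 (3.18) and CDH18 (1.88) lie farthest to the right, and PCDHA7 (-1.85) and PCDHB3 (-1.19) farthest to the left.

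N-cadherin, CDH2, the cadherin of neural and mesenchymal cells (chr18:27950966-28177446, GRCh38), rose 2.15-fold. Its libraries held 4754, 5027 and 5190 normalized counts in LACTB cells, against 1978, 2617 and 2368 in vector cells. Every LACTB library was above every vector library. LACTB minus vector, this was 1.11 on the log2 scale (SE 0.12, limma adjusted p = 1.3e-07), and the value lay between 0.95 and 1.30 under all alternatives. Per kilobase of transcript, CDH2 was the highest tested CDH gene in both groups, at 1152 normalized counts per kb in LACTB cells and 536 in vector cells. CDH13, the lipid-anchored T-cadherin, came next at 396 and 228 per kb.

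E-cadherin, CDH1, which holds epithelial sheets together, lay under the filter. It had 7.05, 0 and 9.42 normalized counts in LACTB cells and 20.9, 0.184 and 3.31 in vector cells, so the groups overlapped at very low levels. P-cadherin, CDH3, had 8.91, 1.53 and 5.30 in LACTB cells and 4.52, 28.5 and 23.3 in vector cells, again overlapping. Both were untested, as were CDH4 (R-cadherin, at most 19.6) and CDH15 (M-cadherin of muscle). CDH2 was thus the only type I cadherin above the filter among the 5 in the table.

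Of 13 type II cadherins in the table, 6 were tested and 5 rose (83.3%, against 27.4% of all tested genes). Of the 4 whose mean reached the filter in both groups, 3 rose, and CDH6 and CDH12 reached it in LACTB cells alone. CDH6, known as K-cadherin from kidney (chr5:31193750-31329146), had 136, 86.8 and 91.2 normalized counts in LACTB cells, against 6.34, 2.32 and 4.26 in vector cells. The ratio of means was 24.3, the log2 difference 4.36 (SE 0.41, adjusted p = 2.66e-08), and the rise ranked 2 among all tested genes. CDH6 stayed a gene of low level, at 12.4 per kb in LACTB cells and 0.508 in vector cells. Its log2 difference depended on the pseudocount, at 1.75 with a pseudocount of 37.7.

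CDH12, a brain cadherin (chr5:21750673-22853622), had 302, 323 and 333 normalized counts in LACTB cells, against 32.0, 31.2 and 40.3 in vector cells. The log2 difference was 3.18 (SE 0.23, adjusted p = 4.82e-10), a 9.25-fold ratio of means that ranked 25 among the rises. CDH18, its neighbour on the short arm of chromosome 5 (chr5:19472951-20575873), had 421, 473 and 402 in LACTB cells, against 148, 100.3 and 105 in vector cells. The difference was 1.88 (SE 0.20, adjusted p = 1.08e-07, rank 100). In both genes the lowest LACTB library was far above the highest vector library. CDH18-AS1, named as the antisense of CDH18, stood at no more than 4.17 in any library.

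CDH6, CDH12 and CDH18 lie on the same chromosome arm, where other genes were higher too. The 50 tested non-member genes around CDH6 and CDH12 had a median log2 difference of 0.58, and those around CDH18 of 0.55, against 0.05 over all tested genes. With length and GC removed these medians were 0.45 and 0.44. The differences of CDH6, CDH12 and CDH18 were above these medians, and the part of the neighbourhood in them was not tested. CDH9 and CDH10, which lie on that arm as well, did not exceed 12.4 in any library.

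The promoter windows of CDH12 and CDH18 are shown. CDH6, the other tested cadherin gene of that arm, had no entry among the RefSeq promoters used. The windows run from 250 bases before to 50 bases after the RefSeq gene start (GRCh38.p14, minus strand), at chr5:22853295-22853594 and chr5:20575664-20575963. Capitals mark the general E-box CANNTG, searched on both strands, and do not mark the site of any given factor. CDH12 and CDH18 each have 3 promoter entries, and the most upstream one is shown. The E-box occurred once in the CDH12 window, 27 bases before the start, and not in the CDH18 window, although 2 of the 3 CDH18 entries and all 3 CDH12 entries held a match. At least 1 entry held it in 10 of 12 CDH genes with entries (83.3%), and 68.7% of all 35116 entries did.
CDH12: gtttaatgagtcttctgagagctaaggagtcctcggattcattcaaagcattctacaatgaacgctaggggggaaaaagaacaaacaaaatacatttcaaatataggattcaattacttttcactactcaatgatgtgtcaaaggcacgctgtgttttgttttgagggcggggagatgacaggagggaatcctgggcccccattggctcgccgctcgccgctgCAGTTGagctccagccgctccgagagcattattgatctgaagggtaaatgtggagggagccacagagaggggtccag
CDH18: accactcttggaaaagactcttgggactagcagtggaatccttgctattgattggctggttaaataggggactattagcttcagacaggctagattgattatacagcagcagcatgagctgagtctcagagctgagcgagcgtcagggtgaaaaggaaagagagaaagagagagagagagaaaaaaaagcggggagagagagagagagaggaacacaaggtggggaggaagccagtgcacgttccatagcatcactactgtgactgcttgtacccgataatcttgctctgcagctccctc

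The other type II cadherins moved less. CDH11, the mesenchymal OB-cadherin (chr16:64943753-65126112), had 938, 1030 and 1123 normalized counts in LACTB cells, against 610, 859 and 746 in vector cells, and the groups did not overlap. Its difference was 0.49 (SE 0.14, adjusted p = 0.00715), but 0.06 with adjusted p = 0.679 once a trend on transcript length and GC content was removed. CDH24 (chr14:23047062-23057538) averaged 958 ± 93.5 in LACTB cells and 721 ± 148 in vector cells (SD, n = 3 each), and the groups overlapped. Its difference of 0.43 (adjusted p = 0.0225) lost its call with median centring (0.107) and without LACTB 1, vector 1 or vector 2 (0.0640 to 0.108). CDH19, a cadherin of the Schwann cell lineage, averaged 878 ± 159 in LACTB cells and 720 ± 253 in vector cells and did not pass (0.34, adjusted p = 0.166).

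Among the remaining CDH genes, CDH13 (chr16:82626803-83800640) had 3052, 3192 and 3310 normalized counts in LACTB cells, against 1668, 2070 and 1753 in vector cells. The groups were clearly apart. The difference was 0.80 (SE 0.12, adjusted p = 7.49e-06), and 0.33 (adjusted p = 0.0023) with length and GC removed. The genes around CDH13 and CDH11 on chromosome 16 had medians of -0.13 and -0.35, below that of all tested genes. Those around CDH2 on chromosome 18 had a median of 0.38, against 0.05 over all tested genes. With length and GC removed these values were 0.20 and 0.06. The difference of CDH2, 1.11, was above the median of its neighbours, and the part of the neighbourhood in it was not tested. An opposite-strand gene covered 1.26% of the exon bases of CDH13 and another 2.75% of those of CDH2, and both stood at no more than 28.5 in any library.

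**Figure D2:**
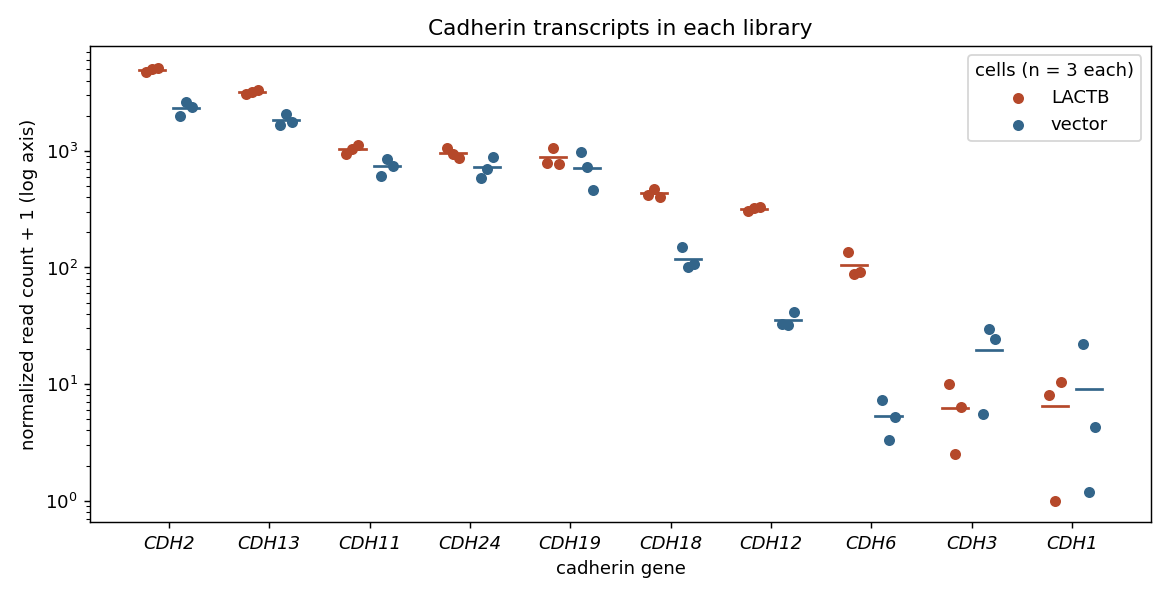
Normalized read counts plus 1, on a log axis, of the 8 tested CDH genes and of CDH3 and CDH1 in each library, LACTB libraries left of vector libraries, with bars at the group means. CDH6 and CDH12 show the widest gaps between the groups (105 against 4.31 and 319 against 34.5), while CDH24, CDH19, CDH3 and CDH1 overlap.

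Of the 11 protocadherins outside the clusters, 7 were tested. PCDH10, known as OL-protocadherin (chr4:133149315-133208606), averaged 960 ± 8.81 normalized counts in LACTB cells and 614 ± 156 in vector cells, a difference of 0.68 (adjusted p = 0.00152). PCDH18 (chr4:137518918-137532494) averaged 715 ± 62.2 in LACTB cells and 455 ± 109 in vector cells (0.68, adjusted p = 0.00212). PCDH9 (chr13:66302834-67230445), abundant in brain, averaged 511 ± 77.3 in LACTB cells and 324 ± 56.7 in vector cells (0.66, adjusted p = 0.00323). In all 3 genes every LACTB library was above every vector library. With length and GC removed, PCDH10 was at 0.14 (adjusted p = 0.455), PCDH18 at 0.23 (0.164) and PCDH9 at -0.20 (0.208), so these calls rested on leaving that trend in place. The 50 tested genes around PCDH10 and PCDH18 had a median of 0.37, and of 0.02 with length and GC removed.

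PCDH1, a protocadherin of epithelia and airway (chr5:141853111-141879246), was the most abundant of them. It averaged 13875 ± 1296 normalized counts in LACTB cells and 13333 ± 1128 in vector cells, a difference of 0.06 (95% interval -0.18 to 0.30, adjusted p = 0.702). PCDH7 (766 ± 196 against 679 ± 137) and PCDH20 (77.6 ± 21.3 against 78.5 ± 13.3) did not pass either. PCDH12, an endothelial protocadherin, averaged 41.6 ± 14.4 in LACTB cells and 72.9 ± 25.1 in vector cells and missed the threshold (-0.79, adjusted p = 0.0567).

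The clustered protocadherins carry promoter letters of their own, shown for the 11 called members, which took different directions. A search on both strands of the RefSeq windows used 3 motifs that were chosen after the sequences had been read and that all contain CGCT, the core of the conserved element of these promoters. ATGTCGCT occurred in 9 of 13 alpha genes with an entry and in 0.234% of all 35116 entries. GGTGGCGCT occurred in 13 of 14 beta genes and 0.501% of entries, and CGCTGTT in 13 of 20 gamma genes and 2.26% of entries. The gamma motif was also found at PCDHB3, where it overlaps the beta motif, and at CDH2, and CGCT alone occurred in 70.0% of entries. The lines give 60 bases on the plus strand of chromosome 5 (GRCh38.p14) with the motif of each array in capitals, 2 to 85 bases before the RefSeq gene start. GENCODE, used for the gene positions here, starts PCDHB14 at chr5:141222932, so its window lies downstream of that start. PCDHGB6 and PCDHGC4 lack CGCTGTT in the table, and capitals there mark the first CGCT of the most upstream of their 2 entries, 81 and 62 bases before the start.
PCDHA7: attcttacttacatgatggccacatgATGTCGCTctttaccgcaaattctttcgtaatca
PCDHB3: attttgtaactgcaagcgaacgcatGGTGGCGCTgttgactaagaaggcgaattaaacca
PCDHB7: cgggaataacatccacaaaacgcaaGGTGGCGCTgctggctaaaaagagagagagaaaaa
PCDHB8: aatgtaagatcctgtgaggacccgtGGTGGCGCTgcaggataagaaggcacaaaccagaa
PCDHB14: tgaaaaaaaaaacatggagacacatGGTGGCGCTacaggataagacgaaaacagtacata
PCDHGA4: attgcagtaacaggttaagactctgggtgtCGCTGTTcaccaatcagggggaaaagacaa
PCDHGA5: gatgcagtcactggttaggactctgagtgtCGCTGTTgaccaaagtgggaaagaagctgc
PCDHGA6: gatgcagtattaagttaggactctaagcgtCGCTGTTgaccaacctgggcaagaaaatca
PCDHGA7: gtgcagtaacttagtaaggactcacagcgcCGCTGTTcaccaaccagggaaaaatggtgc
PCDHGB6: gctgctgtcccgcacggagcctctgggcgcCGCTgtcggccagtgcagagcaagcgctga
PCDHGC4: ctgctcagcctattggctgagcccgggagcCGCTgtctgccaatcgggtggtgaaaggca

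The windows lie at chr5:140834158-140834217 for PCDHA7, chr5:141100379-141100438 for PCDHB3, chr5:141172552-141172611 for PCDHB7, chr5:141177763-141177822 for PCDHB8 and chr5:141223249-141223308 for PCDHB14. Those of PCDHGA4 to PCDHGA7 lie at chr5:141354946-141355005, chr5:141364093-141364152, chr5:141373821-141373880 and chr5:141382635-141382694, that of PCDHGB6 at chr5:141407910-141407969 and that of PCDHGC4 at chr5:141484938-141484997. PCDHB3, PCDHB7 and PCDHB8 were lower in LACTB cells and PCDHB14 was higher, with the same 9 letters in each window.

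In the alpha array, 3 of 15 genes were tested, and PCDHA7 fell. PCDHA7 (chr5:140834248-141012344) had 29.6, 42.1 and 10.9 normalized counts in LACTB cells, against 95.8, 85.6 and 86.2 in vector cells, with no overlap. The log2 difference was -1.85 (SE 0.38, adjusted p = 0.000373), and -0.99 with a pseudocount of 37.7. PCDHA3 had 41.9, 76.2 and 84.5 in LACTB cells and 85.4, 117 and 83.1 in vector cells (-0.53, adjusted p = 0.128). PCDHA2 had 36.9, 55.4 and 64.4 in LACTB cells and 28.98, 35.7 and 57.1 in vector cells (0.38, adjusted p = 0.366). Both overlapped between groups.

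Nearly the whole beta array was above the filter, with 15 of 16 genes tested, 1 higher and 3 lower (median -0.20). PCDHB3 (chr5:141100473-141103827) had 40.3, 31.0 and 23.4 normalized counts in LACTB cells, against 69.3, 90.7 and 58.7 in vector cells, with no overlap. The difference was -1.19 (SE 0.32, adjusted p = 0.00355), and -0.67 with a pseudocount of 37.7. An opposite-strand gene, at most 8.93 in any library, covered 10.6% of the exon bases of PCDHB3.

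The most abundant beta genes were PCDHB8, PCDHB5 and PCDHB7. PCDHB8 (chr5:141177790-141180529) had 908, 925 and 1034 normalized counts in LACTB cells, against 1014, 1328 and 1520 in vector cells. PCDHB7 had 542, 642 and 643 in LACTB cells, against 738, 887 and 842 in vector cells. The vector libraries of PCDHB7 were all above the LACTB libraries, while those of PCDHB8 overlapped them. The differences were -0.41 for PCDHB8 (adjusted p = 0.0198) and -0.43 for PCDHB7 (adjusted p = 0.0143). With equal column totals neither passed (0.243 and 0.194), and PCDHB8 did not pass with length and GC removed (0.388). PCDHB5 (chr5:141135218-141138625) had 857, 840 and 814 in LACTB cells and 804, 998 and 1097 in vector cells (-0.20, adjusted p = 0.244).

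PCDHB14 was the beta gene that rose, with 185, 236 and 242 normalized counts in LACTB cells and 66.6, 188 and 160 in vector cells. The groups overlapped, and its difference of 0.79 (adjusted p = 0.0232) was 0.34 (adjusted p = 0.161) without vector 1. Differences of the beta genes that did not pass were between -0.30 and 0.40 (PCDHB2, PCDHB4, PCDHB5, PCDHB6, PCDHB9, PCDHB10, PCDHB11, PCDHB12, PCDHB13, PCDHB15 and PCDHB16). Vector 1 had the lowest beta sum of all libraries, and without it 0 beta genes were higher and 6 lower. Median centring gave 1 higher and 6 lower, and equal column totals 2 higher and 1 lower.

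In the gamma array, 15 of 22 genes were tested, 6 were higher and none lower (median 0.39). Higher calls made up 40.0% of the tested gamma genes and 27.4% of all tested genes, of which 51.9% were called in either direction. Of the 6, PCDHGA6 and PCDHGA7 reached the filter in LACTB cells alone. Among the 12 gamma genes at or above the filter in both groups, 4 were higher. PCDHGA7 (chr5:141382739-141512979) had 52.5, 78.9 and 75.1 normalized counts in LACTB cells, against 21.3, 12.5 and 30.6 in vector cells. Its difference was 1.70 (SE 0.36, adjusted p = 0.000516), and 0.85 with a pseudocount of 37.7. PCDHGB6 (chr5:141408021-141512979) had 245, 322 and 325 in LACTB cells, against 119, 128 and 195 in vector cells (1.03, SE 0.22, adjusted p = 0.000422). Neither gene overlapped between groups.

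PCDHGA6 had 55.2, 57.6 and 87.7 normalized counts in LACTB cells, against 19.4, 36.6 and 43.4 in vector cells (1.03, adjusted p = 0.0154). PCDHGA5 averaged 97.7 ± 24.5 in LACTB cells and 52.8 ± 26.9 in vector cells (0.97, adjusted p = 0.0174). The other higher genes were PCDHGA4 (140 ± 21.5 against 86.5 ± 23.9, 0.72, adjusted p = 0.0224) and PCDHGC4 (70.7 ± 15.4 against 39.4 ± 16.3, 0.89, adjusted p = 0.0297). PCDHGA4 and PCDHGA6 did not overlap between the groups, and PCDHGA5 and PCDHGC4 did. These 4 lost their calls under at least 1 library left out, and the gamma count of 6 was 3 without LACTB 3 or without vector 1. The gamma count was 4 with median centring and 7 with equal column totals, with none lower in either.

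PCDHGC3 (chr5:141475947-141512979), a C-type isoform, held most of the counts listed for the array. It was the highest tested member of all per kilobase, at 3892 per kb in LACTB cells and 3909 in vector cells. Of its exon bases, 40.2% are shared with other gamma genes, and how reads on them were counted is not stated. Its libraries held 17161, 19172 and 18836 normalized counts in LACTB cells and 15957, 19171 and 20279 in vector cells. The difference was within 0.001 of 0 (95% interval -0.25 to 0.25, adjusted p = 0.998). PCDHGB2 had 1114, 1218 and 1214 in LACTB cells and 841, 1212 and 1098 in vector cells (0.19, adjusted p = 0.273). PCDHGB7 had 310, 334 and 358 in LACTB cells and 277, 346 and 417 in vector cells (-0.04, adjusted p = 0.881). PCDHGB1, PCDHGA1, PCDHGA2, PCDHGA9, PCDHGA10 and PCDHGC5 also did not pass, with differences from -0.17 to 0.63.

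**Figure D3:**
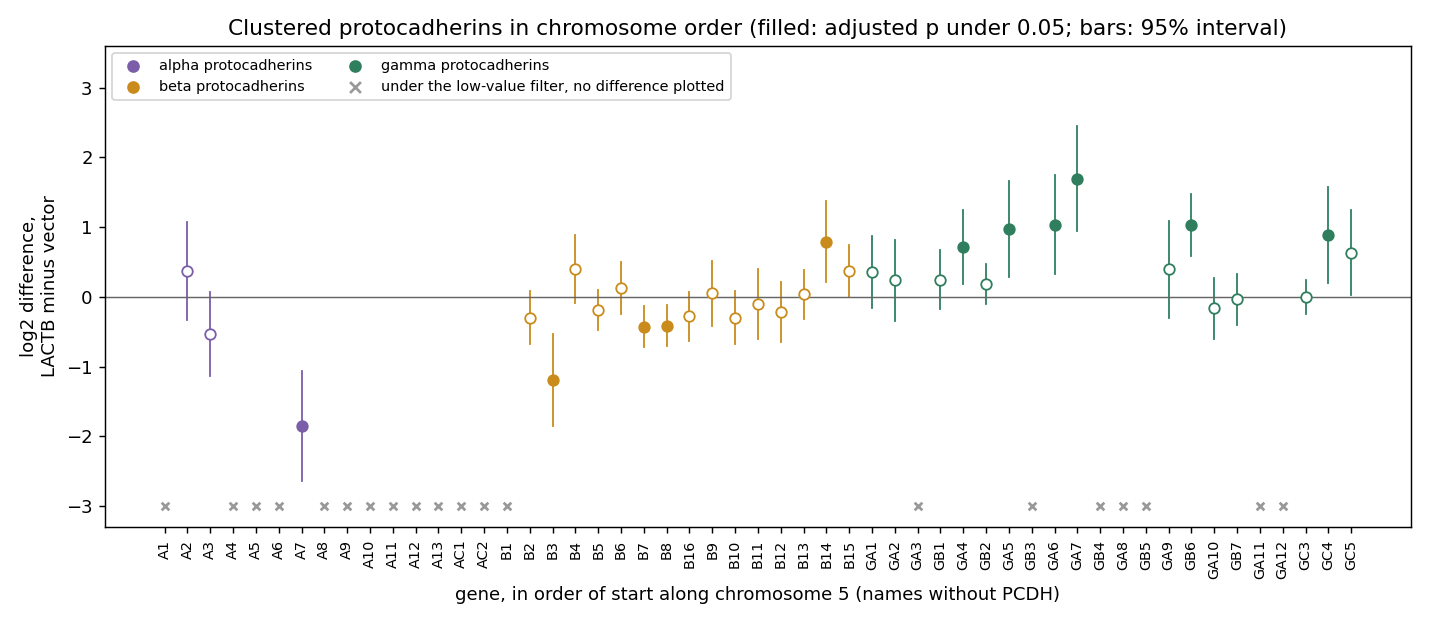
Log2 differences, LACTB minus vector, of the tested clustered protocadherins in their order along the alpha, beta and gamma arrays of chromosome 5, with filled symbols for members past the adjusted p of 0.05, bars for the 95% interval and crosses for genes under the filter. Lower calls stand at PCDHA7 and in the beta array, and 6 of the 7 higher calls stand in the gamma array.

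Summed over each array, the gamma genes held 21409 ± 1302 normalized counts in LACTB cells and 20915 ± 2612 in vector cells, and the beta genes 5990 ± 300.2 and 6772 ± 1261. The alpha genes held 246 ± 30.5 in LACTB cells and 324 ± 37.6 in vector cells. PCDHGC3 made up 86.2, 85.9 and 85.7% of the gamma sum in LACTB cells and 88.9, 87.7 and 88.5% in vector cells. Without it, the gamma sum was 3019 ± 227 in LACTB cells and 2446 ± 386 in vector cells, a ratio of 1.23. The ratio of the beta sums was 0.885 as deposited and 1.01 with equal column totals. These sums were not tested.

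Counts of alpha and gamma genes are uncertain one by one. All 15 alpha and 22 gamma genes share annotated exons with other members of their array, which make up 19.2 to 56.6% of the exon bases of an alpha gene and 27.6 to 64.4% of a gamma gene. The beta genes share no exon but are close in sequence. How reads on shared exons were counted, and whether strand was used, is not stated in the labels or notes used. The 50 tested non-member genes around the arrays had median differences of -0.22 at the alpha and beta genes and -0.16 at the gamma genes, below the 0.05 of all tested genes.

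The 39 members under the filter were present in traces. Of these, 21 reached 10 normalized counts in at least 1 library. They included PCDHGB3 (22.9 to 51.5 in LACTB cells, 10.8 to 25.3 in vector cells), PCDHGA3 (12.9 to 37.8 and 15.1 to 28.7) and PCDHA6 (16.3 to 25.2 and 13.1 to 36.4). PCDHA5 (13.7 to 17.4 in LACTB cells, 15.1 to 35.8 in vector cells) and PCDHGA11 (at most 16.0 and at most 37.1) also overlapped between groups. PCDHA4, PCDHA10, PCDHA11, PCDHA12, PCDHAC2, PCDHGA8, CDH5, CDH10 and CDH23 peaked at 10.4 to 22.2 in their highest library. The remaining 18 stayed at or below 8.34 in every library.

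When no filter was applied, 28.7% of the 87 members were called, against 29.2% of all genes. Of the 39 members under the filter, 4 were called (10.3%), against 7.32% of all genes under it. The limma p-values of this fit differ in scale from those of the main fit. CDH2 had an adjusted p of 5.4e-17 here and 1.3e-07 there, and PCDHB5 0.37 here and 0.244 there. The 4 calls rest on this fit alone, at low values with wide spread, and their p-values should not be read beside the others. PCDH17 had 12.2, 66.8 and 38.2 normalized counts in LACTB cells, against 0.0813, 15.0 and 2.21 in vector cells (3.10, adjusted p = 8.46e-06). CDH7, a type II cadherin, had 19.6, 42.0 and 25.5 in LACTB cells, against 4.29, 2.34 and 8.41 in vector cells (2.38, adjusted p = 0.00048). CDH7 was separated between the groups, and PCDH17 overlapped. CDH15 had 5.11, 12.5 and 2.22 in LACTB cells, against 22.4, 25.4 and 19.2 in vector cells (-1.85, adjusted p = 0.00996). PCDHGA12 had 3.43, 8.05 and 0.0524 in LACTB cells, against 6.64, 32.8 and 18.1 in vector cells (-2.29, adjusted p = 0.00751).

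Partners of the cadherins on the inside of the membrane moved in both directions. Of 15 catenin and plaque genes, 9 were tested, 5 were higher and 4 lower. Among all tested genes 27.4% were higher and 24.5% lower, shares that stand beside this list and each list below. PKP4, an armadillo protein of junctions, averaged 2163 ± 35.9 normalized counts in LACTB cells and 1161 ± 97.2 in vector cells (0.90, adjusted p = 2.11e-06). CTNND1 (p120 catenin), which keeps classical cadherins at the surface, rose by 0.54 (adjusted p = 0.000303). Its relative ARVCF averaged 89.0 ± 3.98 in LACTB cells and 212 ± 38.8 in vector cells (-1.22, adjusted p = 9.66e-05). CTNNB1 (beta-catenin) averaged 13126 ± 771 in LACTB cells and 18612 ± 2701 in vector cells (-0.49, adjusted p = 0.0018). CTNNA1 (alpha-catenin) averaged 25700 ± 982 in LACTB cells and 36151 ± 3106 in vector cells (-0.49, adjusted p = 0.00118). With quantile normalization CTNNA1 was at -0.05 (adjusted p = 0.728). With median centring the count was 2 higher and 4 lower, and with length and GC removed 3 and 3.

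Other branches of the superfamily, which the symbol rule did not take, were measured as well. Both tested desmosomal cadherins rose. DSG2 averaged 2838 ± 52.2 normalized counts in LACTB cells and 1060 ± 164 in vector cells (1.43, adjusted p = 8e-09), and DSC2 93.7 ± 13.1 and 42.4 ± 7.74 (1.13, adjusted p = 0.00196). DSC2 did not pass once length and GC were removed (adjusted p = 0.207). Of 10 tested large and atypical cadherins, 6 were higher and 3 lower. FAT4 (223 ± 17.8 against 59.1 ± 16.8, 1.94, adjusted p = 1.75e-06) and FAT1 (7603 ± 372 against 2562 ± 864, 1.63, adjusted p = 4.76e-06) are giant protocadherins of tissue growth and polarity. CELSR3, a seven-pass cadherin of planar polarity, averaged 409 ± 18.1 in LACTB cells and 178 ± 15.7 in vector cells (1.19, adjusted p = 9.09e-06). Its relatives CELSR1 (-0.61, adjusted p = 0.00323) and CELSR2 (-0.44, adjusted p = 0.00904) were lower. Neither of these relatives passed with equal column totals (0.0652 and 0.162). With median centring the count was 3 higher and 3 lower, and with equal column totals 6 and 0.

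Enzymes that cut cadherins were called in both directions, and 51.9% of all tested genes were called. Of 10 tested genes of ectodomain shedding and of the gamma-secretase complex, 2 were higher and 3 lower, with 5 and 1 under equal column totals and 1 and 4 under median centring. The protease ADAM9 rose (3154 ± 126 against 1451 ± 271, 1.14, adjusted p = 3.5e-07), and PSEN2, a catalytic subunit of gamma-secretase, fell (1292 ± 112 against 2280 ± 202, -0.82, adjusted p = 9.63e-06). ADAM15 was at -0.37 (adjusted p = 0.00799), which did not pass with equal column totals (0.121).

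Looping by CTCF and cohesin selects promoters in the clustered arrays. Of 11 tested genes of that list, 6 were higher and 1 lower, and 3 and 2 with length and GC removed. The cohesin loader NIPBL averaged 606 ± 123 normalized counts in LACTB cells and 206 ± 36.2 in vector cells (1.55, adjusted p = 7e-07). The cohesin subunit SMC3 rose by 0.86 (adjusted p = 0.000123), and WAPL, which releases cohesin, by 0.66 (adjusted p = 0.000251). WAPL lost its call with length and GC removed (adjusted p = 0.108). CTCF itself was at 0.04 (adjusted p = 0.772).

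Cytoplasmic partners of protocadherins include the WAVE complex and kinases. Of 12 tested, 4 were higher and none lower, and with length and GC removed 2 were higher and 3 lower. NCKAP1, a WAVE complex subunit, rose by 1.03 (adjusted p = 2.64e-06) and MARCKS, an actin-binding protein at the membrane, by 0.58 (adjusted p = 0.000409). ABI2 was at 0.45 (adjusted p = 0.00295). With length and GC removed NCKAP1 was not called (adjusted p = 0.0955) and ABI2 turned to -0.35 (adjusted p = 0.00168).

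Of 7 repressors of E-cadherin, all tested, 3 were higher and 1 lower. Equal column totals gave 5 higher and 0 lower, median centring 1 and 1, and removal of length and GC 4 and 0. ZEB1 averaged 217 ± 47.4 normalized counts in LACTB cells and 106 ± 33.3 in vector cells (1.05, adjusted p = 0.00131). TWIST2 was at 0.43 (adjusted p = 0.00965) and TWIST1 at -0.41 (adjusted p = 0.0105). TWIST2 did not pass with median centring (0.0679), nor TWIST1 with equal column totals (0.191).

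Each member was also compared after a spline on transcript length and GC content had been removed from every library. Of tested members, 14 were then higher and 4 lower, and 49.4% of all genes in that fit were called. CDH6 (3.78), CDH12 (2.99), CDH18 (1.79), CDH2 (0.95), PCDHGA7 (1.83) and PCDHA7 (-1.93) had the same direction and passed. CDH11, PCDH9, PCDH10 and PCDH18 lost their calls, as did PCDHGA6 (adjusted p = 0.0617), PCDHB8 and PCDHB14. Calls as higher were gained by PCDH1 (0.23, adjusted p = 0.0179), PCDHGB2 (0.31, 0.0288) and PCDHGC5 (0.76, 0.0413). PCDHB16 gained a call as lower (-0.51, adjusted p = 0.0195). Gamma genes were 7 higher and none lower in that fit.

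**Figure D4:**
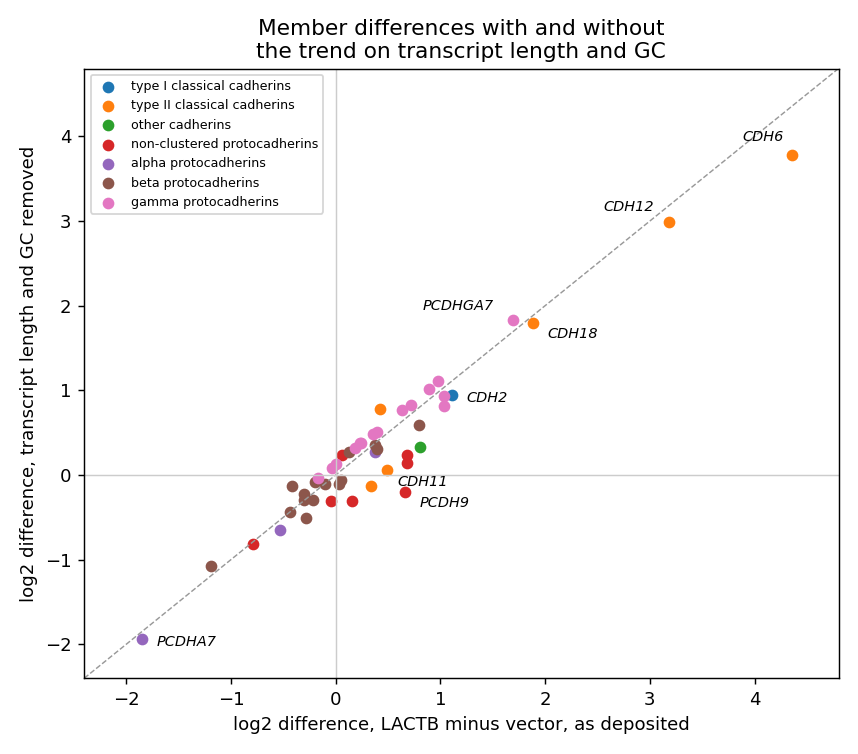
Log2 differences, LACTB minus vector, of the tested members as deposited (horizontal axis) and after removal of a trend on transcript length and GC (vertical axis), colored by class, with the line of equality dashed. CDH12, CDH18, CDH2, PCDHGA7 and PCDHA7 lie near the line, CDH6 lies below it at 4.36 and 3.78, and PCDH9 lies at 0.66 and -0.20.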

How the data were processed

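The 6 libraries were grouped by their titles. HISAT2 and hg38 are named as tool and build, per the submitters' processing notes. What counted the reads, on which annotation and strand, and how values were normalized is not given in the sources used here. Each gene has 1 deposited signal value in a library, taken as a normalized read count although not whole. Read depth is therefore unknown, so counting intervals are left out and the precision is that of 3 libraries per group.

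Values below 1e-10 were set to 0. Of repeated rows (9 symbols), the lower one was renamed. Genes whose mean reached 1 CPM of the mean column total (37.7 normalized counts) were compared as log2(value + 1), a scale that understates changes of low genes, in R 4.3.3 with limma 3.58.1, two-sided, with group as the only term and its trend and robust options on. Adjustment was Benjamini-Hochberg over all tested genes at 0.05. The script was tested on simulated data. Differences are LACTB minus vector, and means are given ± SD over 3 libraries.

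Lengths, GC and positions came from GENCODE on GRCh38, which matched 94.8% of symbols to 1 gene and 98.2% of tested genes to a length and GC. Promoters came from the RefSeq table of GRCh38.p14, which held 68 of 87 members.

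Every tested member is named. Values in each library are given for members called at 2-fold or more, for CDH1, CDH2, CDH3 and CDH11, and for the 3 most abundant genes of each array. From each related list the 3 genes with the smallest adjusted p are named. CTCF, CTNNA1, CTNNB1, CELSR1, CELSR2, PCDH17 and the other genes given library by library were added after their values were seen. Members and lists were chosen with earlier results of these data known. Python 3.11.15 with matplotlib 3.10.9 drew the figures.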

Additional observations from a re-analysis of the deposited data

How the results depend on the processing

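Of the 21 called members, CDH2, CDH6, CDH12, CDH13, CDH18, PCDHA7, PCDHB3, PCDHGA7 and PCDHGB6 kept direction and call under every alternative that tested them, the 2-fold minimum aside. CDH6, CDH12, PCDHA7, PCDHB3 and PCDHGA7 among them had passed the filter only through the group in which they were high. The filter at 5 CPM left these out. Another 11 called members lost the call under at least 1 alternative, and PCDH9 changed sign. Of the 27 others, 12 were called and 11 changed sign under at least 1. The number of reads is unknown, so what depth limits cannot be stated. Members higher numbered 17, and 9 with a filter at 5 CPM, 11 at an adjusted p of 0.01 and 7 with a 2-fold minimum. Members lower numbered 4, and 2 with a filter at 5 CPM, 9 with median centring, 2 with equal column totals, 8 with quantile normalization, 2 at an adjusted p of 0.01 and 2 with a 2-fold minimum. The first filter and both stricter thresholds admit fewer genes by construction. Leaving out 1 library gave 13 to 18 higher members and 2 to 7 lower ones, with 7 lower without vector 1, 2 without LACTB 1 and 2 without vector 2. Among all genes, 1400 were called at 2-fold or more, which is 10.8%, against 9 of the 48 tested members.

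Signs changed for 12 members, of which PCDH9 was called and the other 11 were not. With median centring PCDHB13 was at -0.10, PCDHB6 at -0.006, PCDHB9 at -0.081 and PCDH1 at -0.076. With equal column totals PCDHB11 was at 0.086, PCDHGC3 at 0.19, PCDHGB7 at 0.16, PCDHGA10 at 0.026 and PCDH20 at 0.15. Quantile normalization put PCDHB13 at -0.15, PCDHB6 at -0.072, PCDHB9 at -0.14, PCDHGC3 at 0.23 and PCDH7 at -0.0042. With length and GC removed PCDHB13 was at -0.10, PCDHB9 at -0.061, PCDHGC3 at 0.13, PCDHGB7 at 0.084, PCDH7 at -0.31, PCDH9 at -0.20 and CDH19 at -0.13. Leaving out 1 library moved PCDHB11 between -0.32 and 0.088, PCDHGC3 between -0.10 and 0.071, PCDHGB7 between -0.19 and 0.11, PCDH1 between -0.016 and 0.11, PCDH20 between -0.22 and 0.18, PCDHB9 between -0.29 and 0.30, PCDHB13 between -0.16 and 0.15, PCDHB6 between -0.061 and 0.28 and PCDH7 between -0.0083 and 0.39. The cause was not tested.

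Libraries of the 2 groups share replicate numbers, but the deviations of same-numbered libraries correlated at 0.0227, 0.183 and 0.00441 across genes, so the numbers were not taken as pairs. LACTB 1 correlated best with vector 3 (0.160). With the number as a replicate block, 18 members were higher and 5 lower, and 6878 of all genes were called against 6720.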
